A study of Mus musculus with 145 samples.

Results

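Of the 24615 genes counted in these libraries, 43 that carry a cell through S phase and mitosis were followed across the reprogramming of mouse spermatogonial stem cells (SSCs). They were listed by their known roles, with earlier results of these data known: 19 copy DNA or feed its copying (replication genes) and 24 act from late G2 to the end of division (mitosis genes), and all 43 were found in the count tables. The SSCs came from postnatal day 5.5 *Oct4*-EGFP pups (C57BL/6[female] X DBA[male]), whose reporter carries EGFP under an *Oct4* promoter, and were kept in SSC medium, where colonies that resemble embryonic stem cells appear without added genes. Cells were picked from SSC-like and pluripotent-like colonies by mouth pipette between day 0 and day 27 and sequenced by a modified STRT-seq, which counts molecules by unique molecular identifiers (UMIs), in 46 libraries and 4339 cells. Germline-derived pluripotent stem cells (gPSCs) at passage 1 and passage 15, grown in N2B27 with 2iL, and mouse embryonic stem cells (mESCs) gave 1 library each. A further experiment measured RNA by scTrio-seq2 in 8 samples treated with 5C, a mix of SGC707, vitamin C, EGCG, daphnetin and TUDCA, and in 5 samples given the solvent DMSO. The labels name no treatment of the STRT-seq cells and do not say which libraries came from separate cultures. The deposited library names tie some together: the 7 libraries with RPG1 sums carry 5 source names, DMSO replicates 1 and 2 share a name, as do DMSO replicate 4 and the day 24 cells of replicate 5, and part of the cells of 5C replicates 2, 4 and 7. Among others, day 27 replicates 1 and 2 also share a name, as does part of the cells of day 14 replicates 5 and 6, both with RPG2 sums. What a shared name stands for is not stated, so p-values here measure the spread between libraries, which may be technical.

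Dividing cells make their replication genes in a wave at the start of S phase, driven by E2F factors, and their mitosis genes in a later wave in G2, driven through CCAAT boxes and CHR elements by NF-Y, the DREAM and MuvB complexes, B-MYB and FOXM1. Cells that rest outside the cycle hold both waves low. Pluripotent stem cells in culture divide fast with a short G1, whereas SSCs in culture divide more slowly and spermatogonia that enter meiosis leave the mitotic cycle after a last round of DNA synthesis.

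The regulatory stretches behind these waves were read from the RefSeq promoter windows of GRCm38.p6, the 250 bases before each start, which were found for 38 of the 43 genes. All letters were searched on both strands, and an overlap between 2 sites was allowed. The E2F letters TTTNNCGC stood in 5 of 17 replication promoters (29.4%), in 1 of 21 mitosis promoters (4.76%) and in 4.39% of all 27025 windows. The CHR letters TTTGAA stood in 3 replication promoters (17.6%), in 7 mitosis promoters (33.3%) and in 16.3% of all windows, and CCAAT in 13 (76.5%), in 19 (90.5%) and in 34.5%. A match describes letters only, and a window without one says nothing about a factor. The windows of 2 helicase genes with E2F letters and of 2 mitosis genes with CHR letters are shown 5′ to 3′ on the strand of the gene, with the matched letters of all 3 motifs in capitals.
Mcm5 (chr8:75109259-75109508, plus strand): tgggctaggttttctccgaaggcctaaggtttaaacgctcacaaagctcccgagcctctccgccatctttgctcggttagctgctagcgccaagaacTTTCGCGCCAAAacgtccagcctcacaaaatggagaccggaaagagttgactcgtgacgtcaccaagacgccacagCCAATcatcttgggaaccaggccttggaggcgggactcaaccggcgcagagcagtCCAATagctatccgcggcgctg
Mcm6 (chr1:128359706-128359955, minus strand): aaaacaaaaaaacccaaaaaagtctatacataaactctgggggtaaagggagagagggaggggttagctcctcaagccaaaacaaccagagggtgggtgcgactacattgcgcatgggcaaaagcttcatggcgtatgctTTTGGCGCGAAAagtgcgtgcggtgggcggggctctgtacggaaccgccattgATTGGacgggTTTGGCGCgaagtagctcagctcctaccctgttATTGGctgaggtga
Top2a (chr11:99024190-99024439, minus strand): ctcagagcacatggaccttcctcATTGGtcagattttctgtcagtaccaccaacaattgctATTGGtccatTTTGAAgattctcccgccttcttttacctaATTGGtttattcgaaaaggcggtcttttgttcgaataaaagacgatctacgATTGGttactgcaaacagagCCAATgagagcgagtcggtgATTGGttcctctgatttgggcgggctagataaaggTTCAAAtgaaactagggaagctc
Ube2c (chr2:164769679-164769928, plus strand): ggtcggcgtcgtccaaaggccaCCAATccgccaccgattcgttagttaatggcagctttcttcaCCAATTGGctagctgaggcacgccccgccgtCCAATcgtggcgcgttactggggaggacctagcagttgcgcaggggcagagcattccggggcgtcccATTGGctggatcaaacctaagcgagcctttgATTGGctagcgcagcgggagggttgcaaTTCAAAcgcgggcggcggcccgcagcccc
The capitals in *Mcm5* begin 153 and 149 bases before the start for a pair of overlapping E2F matches that read in opposite directions, and *Mcm6* carries 3 E2F matches, at 110, 106 and 47 bases before it. *Top2a* holds 6 CCAAT boxes and CHR letters at 179 and 23 bases before its start. *Ube2c* also holds 6 CCAAT boxes, and its CHR letters stand 29 bases before the start. Among the members that led the results below, *Rrm2* lies on chromosome 12 (24708241 to 24714146, plus strand), *Gins2* on chromosome 8 (120578633 to 120589304, minus strand), *Clspn* on chromosome 4 (126556935 to 126593903, plus strand), *Cdc45* on chromosome 16 (18780447 to 18811987, minus strand) and *Mki67* on chromosome 7 (135689784 to 135716361, minus strand) in the GENCODE vM21 annotation of GRCm38. The 43 genes sat on 16 chromosomes, and each is protein coding.

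Cells were grouped by the clusters of the deposited annotation, with the numbered clusters of one name joined: SSC1-4 (2265 cells, 36 libraries with at least 5 such cells), RPG1 to RPG4 on the way to pluripotency (333, 47, 261 and 33 cells in 7, 3, 8 and 2 libraries), Fibroblast (221 cells, 5 libraries), Early-pluripotency (196 cells, 3 libraries), Meiotic (505 cells, 6 libraries) and Neural (478 cells, 12 libraries). The clusters were drawn from these same transcriptomes, so the comparisons between them describe the clusters. These libraries held 15975410 to 34609591 UMIs, the gPSC and mESC libraries 10833720 to 14807169 and the scTrio-seq2 samples 3888311 to 10723044. The STRT-seq libraries of the time course came from 2 batches, B1 (36 libraries) and B2 (10 libraries). All RPG2 sums were from B2. The pluripotency markers *Pou5f1*, *Nanog* and *Sox2* summed to 429 to 854 CPM (UMI counts scaled to a common library size) in RPG2 and RPG3 and to 3.80 to 98.9 in SSC1-4, and in RPG4 they summed to 197 and 318. The fibroblast markers *Col12a1*, *Col5a2* and *Ctgf* summed to 42.3 to 792.5 CPM in Fibroblast and to 0 to 20.1 in SSC1-4, with no overlap. Some other class names were less well borne out. The SSC markers *Zbtb16*, *Dazl*, *Dmrt1* and *Ddx4* summed to 1241 to 1815 CPM in Neural 1 and Neural 2, within the 1159 to 2485 of SSC1-4, and to 146 and 354 in the 2 libraries of Neural 3. The early-pluripotent markers *Esrrb* and *Dppa2* (16.4 to 19.5 CPM) and the meiotic markers (227 to 377) of the classes so named lay within the range of SSC1-4, so these names are used only as those of the annotation.

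Summed over the 43 genes, the reprogramming classes RPG2 and RPG3 held more cell cycle RNA than SSC1-4, while Meiotic and Neural cells held less. In each library the UMIs of a class were summed and scaled to CPM by edgeR's TMM factors. In such sums fewer dividing cells and less of this RNA in each cell cannot be told apart. The replication genes summed to 3291 ± 436 CPM in SSC1-4 (SD, n = 36 libraries), 3316 ± 226 in RPG1 (n = 7), 4471 ± 749 in RPG2 (n = 3), 4426 ± 421 in RPG3 (n = 8) and 3566 ± 87 in RPG4 (n = 2). The mitosis genes summed to 4798 ± 770, 5192 ± 1618, 6972 ± 992, 7107 ± 992 and 5458 ± 520 CPM in the same order. The RPG3 libraries ranged from 3847 to 5067 CPM in replication genes and from 6174 to 9188 in mitosis genes, and the SSC1-4 libraries from 2186 to 4416 and from 3090 to 6536, so the ranges overlapped at their edges. In Meiotic cells the sums were 2620 ± 476 and 3610 ± 473 CPM (n = 6), in Neural cells 2323 ± 360 and 3039 ± 1100 (n = 12), in Fibroblast cells 2874 ± 595 and 4767 ± 1093 (n = 5) and in Early-pluripotency cells 3153 ± 387 and 5470 ± 1861 (n = 3). RPG1 fell into separate levels: its mitosis genes summed to 6913 and 8019 CPM in the B2 libraries and to 3578 to 4477 in the 5 B1 libraries, against 4959 ± 827 (n = 7) and 4759 ± 765 (n = 29) in SSC1-4 of B2 and B1. Both B2 libraries of RPG1 were of day 18 and the B1 libraries of days 20 and 23, so batch and day cannot be told apart here. Day could not be read as a trend: within SSC1-4 the mitosis sum was lowest at day 23 (3752 ± 475 CPM, n = 6) and highest at day 27 (5708 ± 180, n = 3), and the replication sum was lowest at day 12 (2467 ± 397, n = 2).

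**Figure D1:**
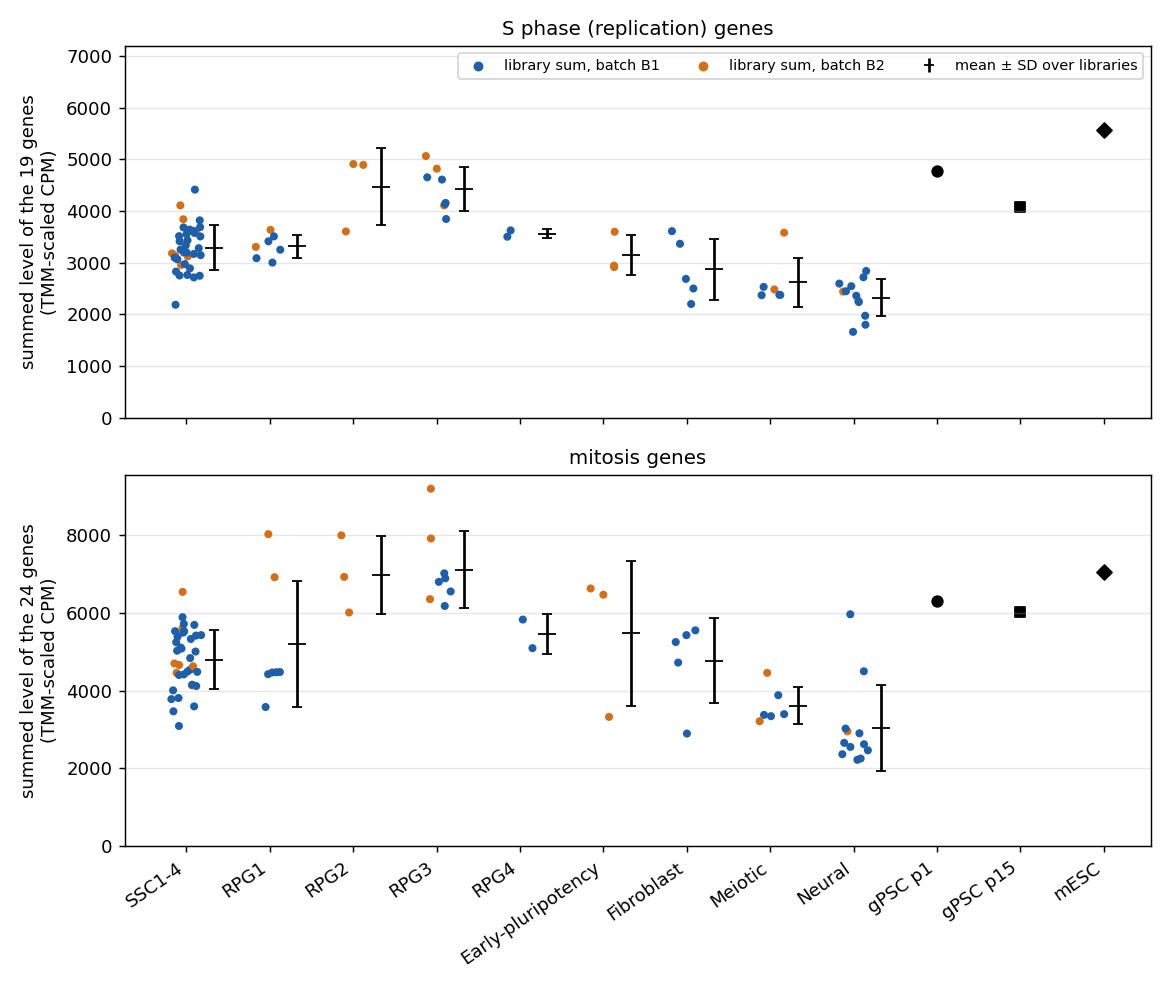
Summed level of the 19 replication genes (top) and the 24 mitosis genes (bottom) in TMM-scaled CPM, each point a library with 5 or more cells of the class, coloured by batch, with the mean and SD over libraries beside them. The gPSC p1, gPSC p15 and mESC symbols are 1 library each, and the RPG2 and RPG3 points lie mostly above those of SSC1-4 while Meiotic and Neural points lie mostly below.

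Within SSC1-4 the members split the clusters into a pair with high and a pair with low levels. SSC2 held 3939 ± 556 CPM of replication and 6663 ± 809 of mitosis genes (n = 23 libraries) and SSC3 3611 ± 308 and 5729 ± 670 (n = 18). SSC1 held 2841 ± 485 and 3407 ± 376 (n = 28) and SSC4 2563 ± 412 and 2570 ± 378 (n = 16). SSC1 cells were shallower, with a median of 149268 UMIs against 286300 in SSC2, 378770.5 in SSC3 and 281650 in SSC4. The part of depth was not tested. Where 1 library held both, SSC2 was above SSC4 in 10 of 10 libraries for either sum, by 0.77 ± 0.32 on the log2 scale for replication and 1.26 ± 0.19 for mitosis (mean ± SD over libraries). *Mki67*, whose protein coats mitotic chromosomes and is the usual stain for dividing cells, spanned most: 14.4 ± 6.85 CPM in SSC4, 32.6 ± 15.1 in SSC1, 136 ± 34.6 in SSC3 and 162 ± 32.4 in SSC2. Its difference between SSC2 and SSC4 within libraries was 3.47 ± 0.65 on the log2 scale, followed by *Nusap1* (2.21 ± 0.52), a spindle microtubule binder, *Kif11* (2.00 ± 0.54), the motor that parts the spindle poles, *Hmmr* (1.98 ± 0.67), a spindle assembly factor, and *Top2a* (1.98 ± 0.45), which untangles sister DNA. Among replication genes *Rrm2*, the cycle-regulated subunit of ribonucleotide reductase, differed most (1.61 ± 0.84, higher in 10 of 10), and *Mcm2*, part of the replicative helicase, least (0.34 ± 0.28, higher in 8 of 10). SSC2 was above SSC3 in replication genes in 12 of 12 libraries (0.26 ± 0.18), and in mitosis genes in 8 of 12 (0.08 ± 0.15). As the clusters were drawn with these genes among others, no test is given.

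In single cells the waves were scored apart. Each cell was thinned to 50000 UMIs, which left out 232 of 4464 cells as shallower, and the UMIs of the replication genes and of the mitosis genes were counted as 2 scores. Most cells left out were of SSC1, of whose 818 cells 665 were scored. Over all SSC1-4 cells the median scores were 145 and 216 UMIs, against 183 and 339 in SSC2, 183 and 286.5 in SSC3, 117 and 159 in SSC1 and 114 and 126 in SSC4. A high score was set at the 75th percentile of SSC1-4 cells, 205 replication and 305 mitosis UMIs. In SSC2 41.6% of cells were high in replication and 60.4% in mitosis, and in SSC4 10.3% were high in replication and 0 of 448 in mitosis, which allows a share of up to 0.82% (exact binomial interval, for counting error only). The 2 scores ran against each other across the cells of SSC2 (Pearson r = -0.57) and SSC3 (r = -0.506), where most cells were high in one wave or the other, whereas over all SSC1-4 cells r was 0.285 (0.0485 to 0.649 in single libraries). The clusters were drawn with these genes among others, which bears on the r within them. Across the cells of SSC1 and SSC4 they rose together (r = 0.439 and r = 0.548), and 33.7% of SSC4 cells but 0.404% of SSC2 cells were in the lowest 25% of SSC1-4 for both. These r describe cells that share libraries, and in SSC1-4 the UMI total of a cell itself went with the scores (r = 0.257 and 0.204), and its part in these r was not tested.

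**Figure D2:**
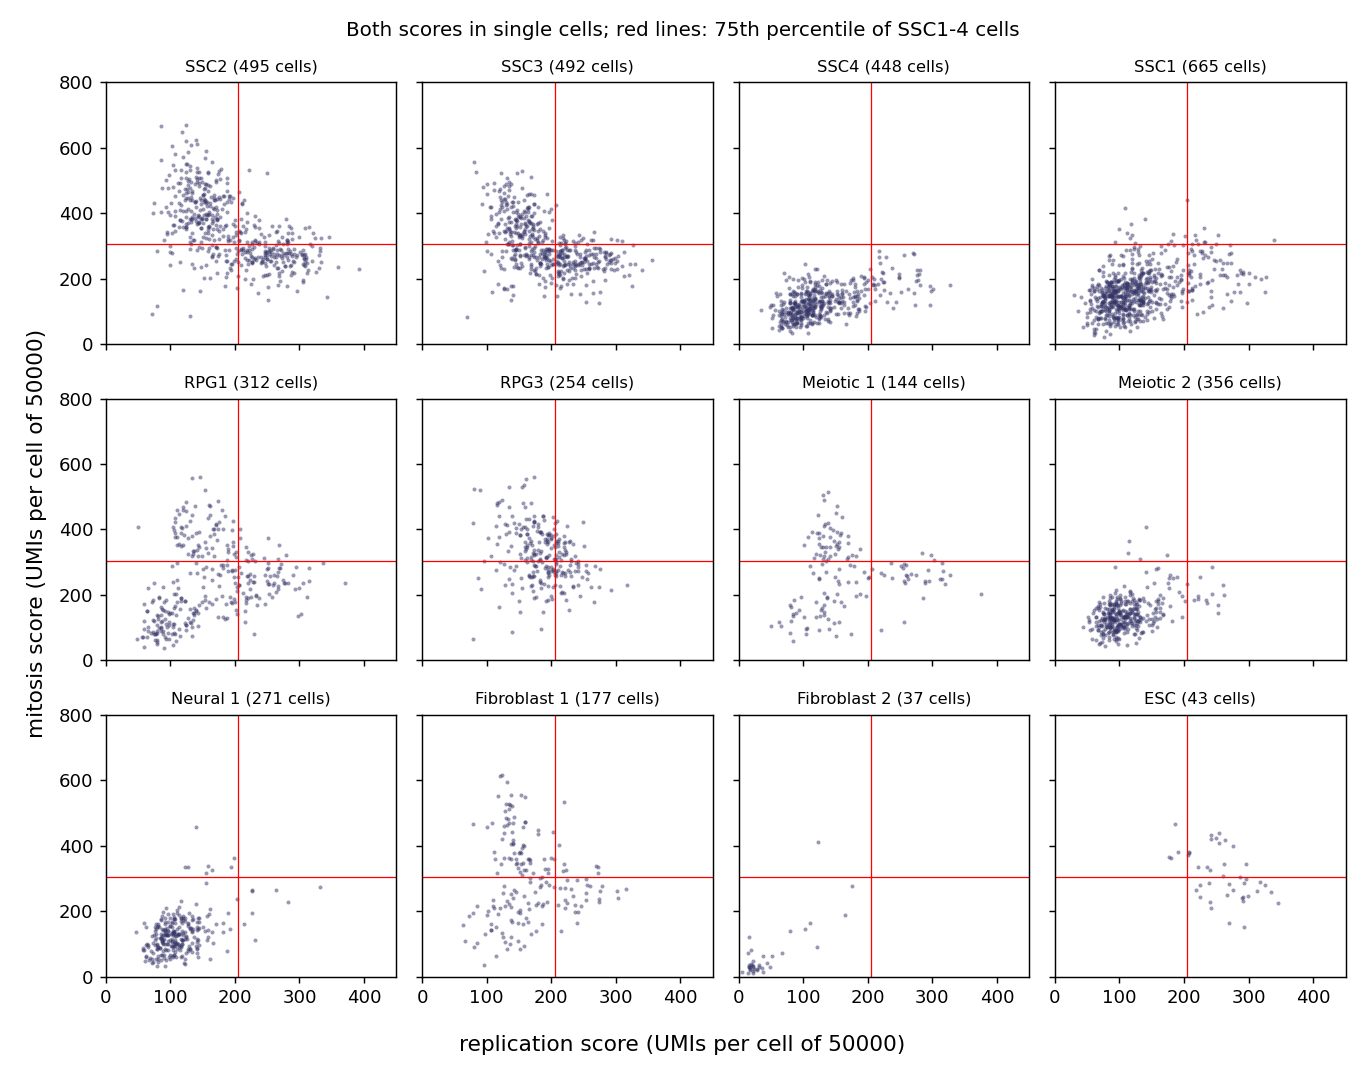
Replication score (x axis) against mitosis score (y axis) of single cells, in UMIs per cell thinned to 50000, for 12 clusters, 1 point per cell, with red lines at 205 and 305 UMIs, the 75th percentiles of SSC1-4 cells. SSC2 and SSC3 cells lie along a falling arc, SSC4, Meiotic 2 and Neural 1 cells gather at the lower left, and RPG3 and ESC cells lie at high values with almost no cell at the lower left.

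Few RPG3 cells were low in both waves, as in SSC2 and SSC3. Their median scores were 186.5 and 316 UMIs, 31.5% of cells were high in replication and 56.7% in mitosis, and 1 of 254 (0.394%) was in the lowest 25% of SSC1-4 for both scores, against 294 of 2100 SSC1-4 cells, 0.203% of SSC3 cells and 15.7% of RPG1 cells. RPG2 had 0 of 45 such cells, gPSC 0 of 77 and ESC 0 of 43. The RPG3 replication scores were also narrow: from the 10th to the 90th percentile they ran from 133 to 233 UMIs, against 84 to 260 in SSC1-4, and at a stricter line, the 90th percentile of SSC1-4 cells, 2.76% of RPG3 cells were high in replication and 16.9% in mitosis. ESC cells were the highest in replication (median 261 UMIs, 90.7% high), and gPSC cells had medians of 202 and 244. RPG4 cells (33) had medians of 179 and 233. In RPG1 25.6% of cells were high in replication and 28.5% in mitosis, and the mitosis share averaged 33.8 ± 28.4% over its 7 libraries (SD).

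In SSC1-4 the members followed their own wave across cells. Over 23 libraries with at least 50 such cells, the mean r of a gene with the other genes of its wave was highest for *Top2a* (0.723), *Ccna2* (0.711), the cyclin of S phase and G2, *Mki67* (0.694) and *Nusap1* (0.691), and among replication genes for *Rrm2* (0.647), *Cdc45* (0.623), a helicase activator, *Mcm3* and *Mcm6* (0.618 each). It was lowest for *Pola1* (0.218), the catalytic subunit of DNA polymerase alpha, and *Chaf1b* (0.234), a histone chaperone. *Prim1*, the primase itself, followed both waves alike (0.536 with replication and 0.506 with mitosis). So, at lower r, did *Chaf1b* (0.234 and 0.232), and nearly so *Pola1* (0.218 and 0.173). Genes outside the list were set against unthinned scores, the mean ln(CPM/10+1) of each wave's genes in a cell, with no cell left out as shallower. Among those whose levels went most with the replication score over SSC1-4 cells (mean r over 24 libraries, 2028 cells, genes detected in at least 20% of them) were *X2810417H13Rik* (0.70, as the deposited counts spell 2810417H13Rik), *Esco2* (0.60), *Gmnn* (0.59), *Uhrf1* (0.58), *Rbm44* (0.57), *Dnajc9* and *Ung* (0.55 each), *Dscc1* and *Wdhd1* (0.55 each). For the mitosis score they were *Kif2c* (0.70), *Esco2* (0.67), *Tubb4b* and *Casc5* (0.63 each), *X2810417H13Rik* (0.61), *Spc25* (0.61), *Tacc3* (0.60), *Fam83d* (0.60), *Kif22* (0.59) and *Incenp* (0.59).

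RPG1, the first class of the path, differed from SSC1-4 in 2 members. *Rrm2* was higher, at 162 and 196 CPM in the 2 day 18 libraries, 153, 142 and 133 in the 3 day 20 libraries and 145 and 150 in the 2 day 23 libraries, against a lowest, median and highest value of 36.5, 107 and 153 in SSC1-4. The upper RPG1 libraries lay above every SSC1-4 library, and the lower ones within their range. The change was 0.57 ± 0.14 (log2 ± SE, adjusted p = 0.00864, edgeR's quasi-likelihood test with Benjamini-Hochberg adjustment over 16472 genes). *Chaf1b* was lower, at 76.8 to 149 CPM with a median of 103 against 73.0, 155 and 227 (-0.52 ± 0.16, adjusted p = 0.0349), with full overlap of the ranges. These were 1 member higher, where 2.34% of all genes were, and 1 lower, where 3.01% were (5.35% in either direction). None of the 24 mitosis genes was called, with a median change of 0.12 against -0.03 over all genes. Without day 18 replicate 3 or 5, day 20 replicate 2 or day 23 replicate 1, 1 member was called. Within B1 or within B2 alone no member passed, and the difference of the RPG1 change between batches was not called for any member (0.0106% of 18870 genes were), although the mitosis median of that difference was 0.75.

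RPG2 was higher in both waves. Of the 19 replication genes 10 rose and 1 fell, and of the 24 mitosis genes 17 rose and none fell, where 21.7% of all genes rose and 20.9% fell (42.7% together). The median change was 0.52 for replication and 0.69 for mitosis genes against -0.27 over all genes. *Rrm2* held 338 CPM in the day 12 library and 579 and 607 in the 2 day 14 libraries against 36.5, 107 and 153 in SSC1-4 (lowest, median and highest), with no overlap (2.39 ± 0.18, adjusted p = 3e-16, edgeR). *Tyms*, which makes thymidylate, held 270, 318 and 330 CPM against 70.8, 144 and 210 in SSC1-4 (1.19 ± 0.15). *Pcna*, the sliding clamp, held 283, 485 and 453 CPM against 140, 235 and 360, so that the day 12 library lay inside the SSC1-4 range. The day 12 library was the lowest of the 3 in each. *Cdc45* went the other way, at 90.4, 109 and 119 CPM against 77.0, 162 and 246 (-0.47 ± 0.19, adjusted p = 0.0406, edgeR). The mitosis genes were led by *Aurka*, the kinase of the spindle poles, at 269, 356 and 303 CPM against 57.4, 123 and 248 (1.32 ± 0.22). *Ube2c*, the ubiquitin carrier of the anaphase-promoting complex, held 446, 672 and 661 CPM against 98.9, 278 and 423 (1.27 ± 0.21), and *Birc5*, or survivin, of the chromosomal passenger complex, 290, 566 and 557 against 119, 232 and 378 (1.15 ± 0.16). For *Aurka* and *Ube2c* the ranges did not meet, and the day 12 library of *Birc5* lay inside that of SSC1-4. Of 35 other replication genes 12 rose and 5 fell, and of 57 other mitosis genes 38 rose and 1 fell. Within B2 alone 17 members were called, all higher, and without the first of the day 14 libraries (replicate 5) 16 were called in place of 28.

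RPG3 differed from SSC1-4 in most members. Of the 19 replication genes 13 rose and 3 fell, and of the 24 mitosis genes 20 rose and 1 fell, where 28% of all genes rose and 33.8% fell (61.8% together). Median changes were 0.45 and 0.64, against -0.15 over all genes. All 6 subunits of the MCM helicase rose, by 0.36 (*Mcm2*) to 0.54 (*Mcm3*), and so did all 4 genes of CDK1 and its cyclins, *Cdk1* (1.08), *Ccnb1* (0.72), *Ccnb2* (0.63) and *Ccna2* (0.40). The anaphase genes *Ube2c* (0.85) and *Cdc20* (0.50) and *Cdca3* (0.68) rose, and of the spindle checkpoint kinases *Bub1* (0.38) and *Bub1b* (0.37) rose and *Ttk* (-0.35) did not pass. Over the libraries that held both classes, 24 of the called members kept their call with the library as a block and 17 without it. There *Bub1* turned to -0.06 and -0.005 and was not called. Of the 3 genes of deoxynucleotide supply *Rrm2* and *Tyms* rose, and *Rrm1*, the large subunit of the same reductase, did not pass (-0.02). Within B1 alone 32 members were called and within B2 alone 21, and no member was called for a difference of the RPG3 change between the batches (0.125% of 18362 genes were), with the smallest unadjusted p for *Kif11* (1.003 larger in B2 on the log2 scale, adjusted p = 0.205, edgeR).

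**Figure D3:**
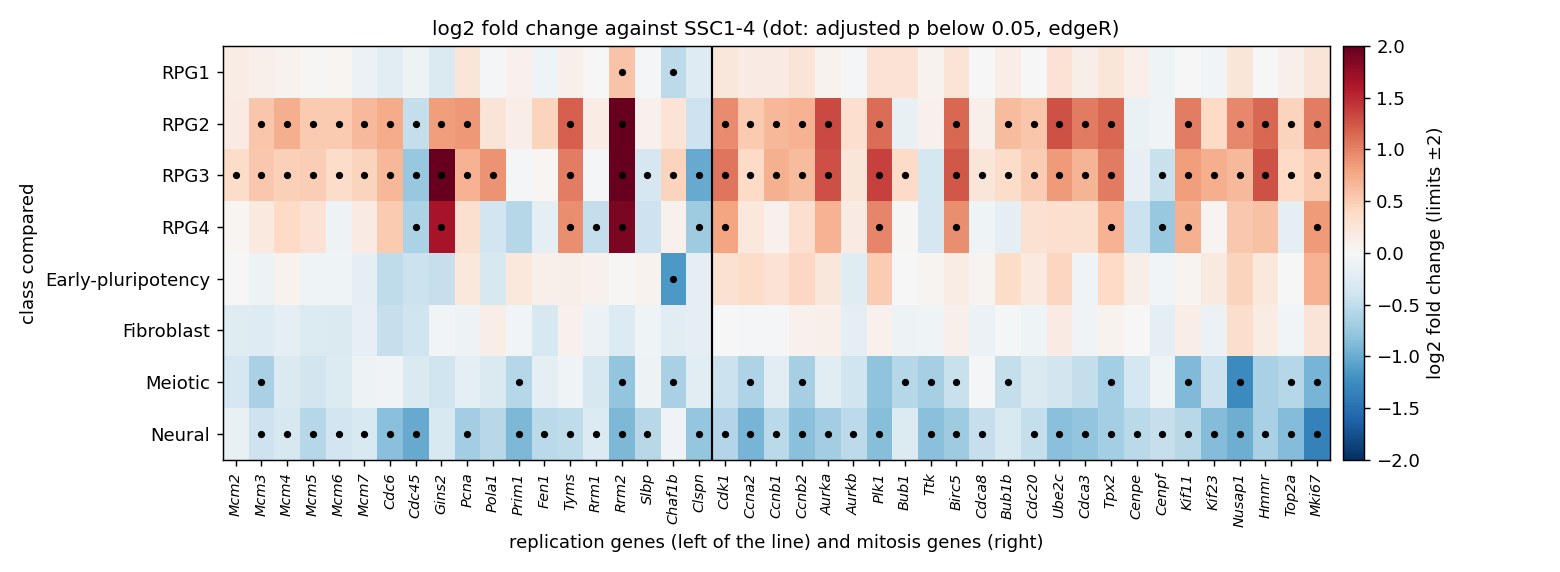
Log2 fold change of each of the 43 members (columns, replication genes left of the line and mitosis genes right) in 8 classes (rows) against SSC1-4, in colour with limits of ±2, with a dot where the adjusted p was below 0.05 by edgeR. RPG2 and RPG3 are mostly red with dots, Meiotic and Neural mostly blue, RPG1 and Early-pluripotency have 2 dots and 1 dot, and Fibroblast has none.

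*Rrm2* changed most in RPG3. Its 8 libraries held 354 to 603 CPM with a median of 461, and the SSC1-4 libraries 36.5 to 153 with a median of 107, so the groups were far apart (4.43-fold, 2.15 ± 0.12 on the log2 scale, adjusted p = 2.28e-22, edgeR). *Gins2*, a subunit of the GINS complex that completes the active helicase, held 67.1 to 141 CPM with a median of 104 against 2.47 to 66.4 with a median of 27.2, also without overlap (2.04 ± 0.19, adjusted p = 5.62e-14). *Gins2* was low in SSC1-4, where 45.2% of thinned cells had a UMI of it and 90.4% of RPG3 cells did. *Tyms* held 258 to 328 CPM against 70.8 to 210 (1.03 ± 0.10). Not every gene of the active helicase moved this way. *Cdc45*, the partner of GINS and MCM, was lower in RPG3, with 61.0 to 134 CPM and a median of 94.5 against 77.0 to 246 and a median of 162 (-0.75 ± 0.13, adjusted p = 1.82e-06, edgeR). *Clspn*, the claspin adaptor that links stalled forks to the checkpoint kinase CHK1, fell furthest, with 81.3 to 127 CPM and a median of 99.7 against 141 to 335 and a median of 207, and here no RPG3 library reached the lowest SSC1-4 library (-1.01 ± 0.12, adjusted p = 3.04e-10, edgeR). *Slbp*, which binds histone mRNA, fell by 0.34 on the log2 scale, with 73.9 to 135 CPM within the SSC1-4 range of 66.8 to 228.

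Among the mitosis genes of RPG3 *Birc5* held 453 to 689 CPM with a median of 511 against 119 to 378 with a median of 232 (1.24 ± 0.10, adjusted p = 2.3e-16, edgeR), with no overlap. *Cdk1*, the kinase that starts mitosis, held 315 to 531 CPM against 112 to 305 (1.08 ± 0.12), again with no overlap. *Aurka* held 213 to 442 CPM with a median of 309 against 57.4 to 248 with a median of 123 (1.28 ± 0.15), and 1 RPG3 library, of day 12, lay within the SSC1-4 range. *Plk1*, the polo kinase, had the highest estimate of the mitosis genes (1.37). *Cenpf*, a large kinetochore protein, was the 1 mitosis gene that fell, with 336 to 596 CPM and a median of 389 against 369 to 968 and a median of 574 (-0.44 ± 0.12, adjusted p = 0.000945, edgeR). The kinetochore motor *Cenpe* (-0.16) and the passenger kinase *Aurkb* (0.24) did not pass. Of the other genes of the pathway, 17 of 35 replication genes rose and 5 fell, 31 of 57 mitosis genes rose and 10 fell, and 5 of 16 regulators of both waves rose and 1 fell.

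**Figure D4:**
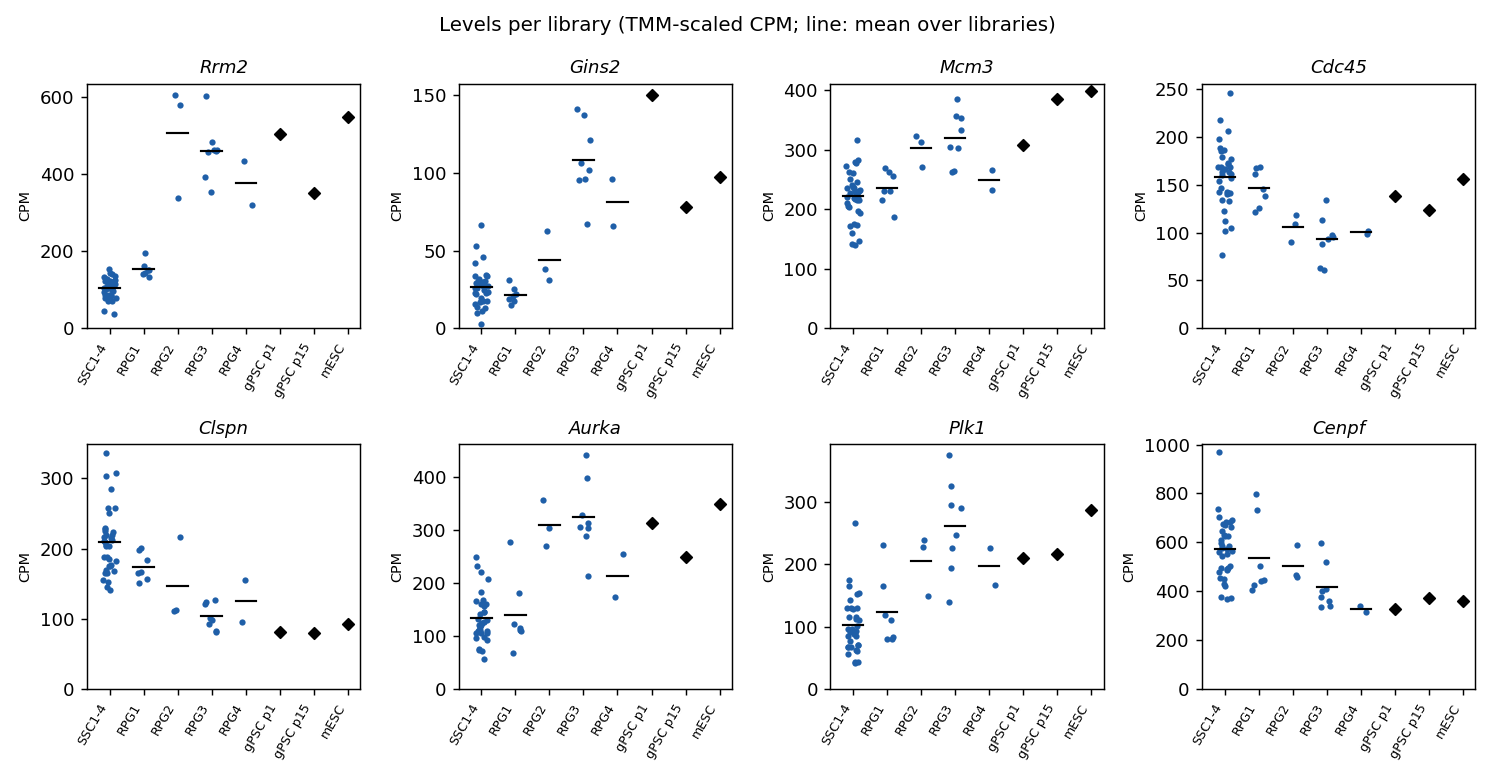
Level of 8 members in TMM-scaled CPM, 1 point per library with at least 5 cells of the class, a line at the mean, and 1 library each (diamonds) for gPSC p1, gPSC p15 and mESC. *Rrm2* and *Gins2* stand high in RPG3, gPSC and mESC with SSC1-4 below, *Clspn* and *Cenpf* fall towards the gPSC and mESC values, and *Cdc45* lies low in RPG2 to RPG4 with mESC (156 CPM) near the SSC1-4 mean of 158.

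SSC1-4 mixes the high clusters SSC2 and SSC3 with the low clusters SSC1 and SSC4, so RPG2, RPG3 and RPG4 were also set against the SSC2 and SSC3 cells alone (29 libraries), an alternative added after the data were seen. These clusters were picked for their high sums of the same genes, so lower values against them than against SSC1-4 follow in part from that choice. In RPG3 13 replication genes rose and 4 fell, and 10 mitosis genes rose and 3 fell, where 30.2% of all genes rose and 32.3% fell (62.5% together). The mitosis median dropped to 0.19 and the replication median to 0.37. *Rrm2* (1.75), *Gins2* (1.88), *Tyms* (0.90), *Birc5* (0.84) and *Plk1* (0.82) were called higher, and *Clspn* (-1.23), *Cdc45* (-0.998) and *Cenpf* (-0.55) lower, as were *Prim1* (-0.38), *Ttk* (-0.74) and *Cenpe* (-0.51). *Mki67* (-0.19, adjusted p = 0.207, edgeR) and *Ccna2* (-0.05) were not called. In RPG2 7 replication and 8 mitosis genes rose (21.8% of all genes did) and 2 and 3 fell (22.5%, 44.3% together). In RPG4 3 and 1 rose (15.8%) and 6 and 5 fell (18.8%, 34.7% together), close to the share of all genes.

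RPG3 was also above RPG1, which shared its libraries. Of the replication genes 12 rose and 2 fell, and of the mitosis genes 12 rose and 1 fell, where 26.2% of all genes rose and 25.2% fell (51.5% together). In the 7 libraries that held both, RPG3 was above RPG1 in 7 of 7 for either sum, by 0.43 ± 0.15 for replication and 0.55 ± 0.27 for mitosis (log2, mean ± SD). *Gins2* was 2.34 ± 0.29 and *Rrm2* 1.59 ± 0.12 higher in 7 of 7 libraries, and *Clspn* (-0.76 ± 0.31), *Cdc45* (-0.56 ± 0.27), *Slbp* (-0.33 ± 0.17) and *Cenpf* (-0.27 ± 0.20) were lower in 7 of 7. In the edgeR fit over all sums *Rrm2* rose by 1.55 ± 0.11 (adjusted p = 1.71e-10), *Gins2* by 2.31 ± 0.21 and *Hmmr* by 1.23 ± 0.22, with 191 to 428 CPM in RPG3 against 76.5 to 212 in RPG1. The 2 RPG1 libraries of batch B2 held 199 and 212 CPM of *Hmmr*, and the other 5 held 76.5 to 102. Paired by library, 35 members were called, against 27 for the same libraries without the pairing, and sums per batch and day gave 13. Within B1 alone 31 members were called, and within B2 alone (3 against 2 libraries) 4 were.

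RPG4, with 2 day 20 libraries, held more *Rrm2*, *Gins2* and *Tyms* than SSC1-4 and less *Rrm1*, *Clspn*, *Cdc45* and *Cenpf*. Of the replication genes 3 rose and 3 fell, and of the mitosis genes 6 rose and 1 fell, where 14.5% of all genes rose and 17.6% fell (32.2% together). The share of members called was close to that of all genes. All genes had a median of -0.42 here, and with DESeq2 size factors, which moved it to -0.30, 13 members rose and 2 fell. *Rrm2* held 433 and 320 CPM, both above the highest SSC1-4 library (1.88 ± 0.22, adjusted p = 1.29e-09, edgeR). *Gins2* held 96.3 and 65.9 CPM (1.64 ± 0.36) and *Tyms* 270 and 268 (0.93 ± 0.19). *Clspn* held 95.1 and 155 CPM (-0.71 ± 0.23) and *Cdc45* 102 and 98.7 (-0.63 ± 0.23), and *Rrm1*, the partner of *Rrm2*, fell by 0.48 ± 0.19. *Birc5* (0.93), *Cdk1* (0.79) and *Plk1* (0.97) rose, and *Cenpf*, at 341 and 316 CPM, fell by 0.76 ± 0.22 below the lowest SSC1-4 library. Without the first library 3 members were called and without the second 6, in fits where the lone RPG4 library is assumed to vary like the SSC1-4 libraries. Set against RPG3, RPG4 had 1 replication and 1 mitosis gene lower (5.48% of all genes were) and none higher (3.74%), with 9.22% called in either direction. *Pola1* held 27.5 and 51.0 CPM against 58.1 to 140 in RPG3 (-1.21 ± 0.36, adjusted p = 0.041, edgeR), and *Ccnb1*, the mitotic cyclin, 345 and 324 against 444 to 628 (-0.56 ± 0.14, adjusted p = 0.0192, edgeR). Neither call held without either library.

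The established lines held high replication sums: 4781 CPM in gPSC p1 (exact Poisson interval 4742 to 4820, for counting error only), 4071 (4032 to 4110) in gPSC p15 and 5568 (5528 to 5608) in mESC, with mitosis sums of 6301, 6024 and 7035. With 1 library each no test was made. *Rrm2* held 504, 350 and 549 CPM in that order, *Gins2* 150, 78.2 and 97.4, *Tyms* 407, 286 and 379, and *Clspn* 81.6, 79.1 and 92.5. These values lay in or near the RPG3 range for *Rrm2*, *Gins2* and *Clspn*, and *Cdc45* lay above the RPG3 median at 138, 124 and 156 CPM. *Mki67* was 69.0 CPM in gPSC p1, 155 in gPSC p15 and 68.4 in mESC, the first and last below the SSC1-4 median of 93.9. *Gins2* and *Rrm2* were both lower in gPSC p15 than in gPSC p1, with intervals that did not meet (339 to 362 against 491 to 517 CPM for *Rrm2*), a difference between these libraries.

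Fibroblast and Early-pluripotency cells differed little from SSC1-4. No member was called in Fibroblast (4.62% of all genes rose and 0.535% fell, 5.16% in all), by edgeR or by DESeq2, and 3 passed an unadjusted p of 0.05, *Cdc45* (-0.41), *Mcm6* (-0.29) and *Fen1* (-0.32). The class joined 2 unlike clusters: Fibroblast 2 summed to 1220 ± 900 CPM of replication and 1607 ± 1237 of mitosis genes (n = 3), with 81.1% of its 37 thinned cells low in both scores, and Fibroblast 1 to 3220 and 5673 (n = 4). Feeder fibroblast markers (*Col1a1*, *Col1a2*, *Col3a1*, *Thy1*, *Lum* and *Dcn*) summed to 2031 to 5840 CPM in Fibroblast 2 and 203 to 339 in Fibroblast 1, and their part in the low sums was not tested. In Early-pluripotency 1 member fell (1.08% of all genes did) and none rose (1.24%), where 2.32% of genes were called in all. *Chaf1b* held 36.8, 86.1 and 93.5 CPM against 73.0, 155 and 227 (lowest, median and highest) in SSC1-4 (-1.14 ± 0.25, adjusted p = 0.00931, edgeR), and without the lowest of these libraries, of day 12, it was not called. All 3 libraries were of B2, and *Chaf1b* was not called within B2 alone or with the library as a block. The mitosis sum was 6455 ± 18.4 CPM in Early-pluripotency 1 (n = 2) and 3275 in the 1 library of Early-pluripotency 2.

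Summed over the class, Meiotic cells held less of some members of both waves, with all sums from day 16, although 1 of its 2 clusters, Meiotic 1, had a mitosis sum above the SSC1-4 mean. Of the replication genes 4 fell and of the mitosis genes 11, where 1.28% of all genes fell, and none rose (1.17% did, and 2.45% were called in either direction). *Nusap1* held 32.8 to 64.8 CPM with a median of 42.8 against 36.1 to 207 with a median of 109 in SSC1-4 (-1.28 ± 0.26, adjusted p = 0.00397, edgeR). *Kif11* held 33.5 to 54.3 CPM against 43.2 to 126 (-0.88 ± 0.19), and *Mcm3* 110 to 182 against 140 to 316 (-0.65 ± 0.12, adjusted p = 0.00164). The ranges overlapped for all 3, with Meiotic libraries at the low end. *Rrm2* (-0.79), *Prim1* (-0.57) and *Chaf1b* (-0.64) were the other replication genes that fell. The class again joined unlike clusters: where 1 library held both, Meiotic 1 was above Meiotic 2 in 5 of 5 libraries, by 0.37 ± 0.10 for replication and 1.08 ± 0.08 for mitosis. Meiotic 1 summed to 3030 and 5661 CPM (n = 6) and Meiotic 2 to 2270 ± 20 and 2797 ± 169 (n = 5). Within B1 alone 10 members were called and within B2 alone (2 libraries) none was. Leaving out day 16 replicate 1, 3, 4 or 5 brought the count to 7, 7, 9 or 8, and with the library as a pair over the 5 shared libraries 1 member was called. None of the regulators of both waves was called, and 4 of 35 other replication and 9 of 57 other mitosis genes fell.

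Neural cells held the least. Of the replication genes 15 fell and of the mitosis genes 22, where 3.76% of all genes fell, and none rose (4.01% did, and 7.77% were called in all), with medians of -0.54 and -0.69 against 0.01. *Cdc45* held 52.6 to 120 CPM with a median of 74.3 against 77.0 to 246 with a median of 162 in SSC1-4 (-1.01 ± 0.12, adjusted p = 1.23e-08, edgeR). *Prim1* held 64.2 to 190 CPM against 138 to 366 (-0.89 ± 0.12), and *Clspn* fell by 0.77 ± 0.10. *Top2a* held 99.1 to 424 CPM with a median of 161 against 209 to 618 with a median of 358 (-0.87 ± 0.14, adjusted p = 2.02e-05), and *Ccna2* 52.2 to 199 against 76.6 to 319 (-0.93 ± 0.16). The highest Neural values of *Top2a* and *Ccna2* were those of day 27 replicates 1 and 2, the libraries with Neural 2 and Neural 3 sums. Within B1 alone 31 members were called. Of the other genes of the pathway 23 of 35 replication and 28 of 57 mitosis genes fell and none rose.

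The Neural clusters were far from alike. Neural 1, at 2242 and 2552 CPM (n = 8), had 36.5% of cells low in both scores, and Neural 3 summed to 3356 and 8313 CPM (n = 2 libraries of 1 source name, 36 and 25 cells). Its mitosis sums were 6632 and 9994 CPM, the first within and the second above the 4797 to 8168 of the SSC2 libraries. Neural 3 cells also carried *Rrm2* at 395 and 426 CPM, *Gins2* at 124 and 91.8 and *Tyms* at 315 and 310, each within the range of the RPG3 libraries, while their pluripotency markers summed to 4.19 and 6.53 CPM and their SSC markers to 146 and 354. Feeder fibroblast markers summed to 1112 to 1188 CPM in Neural 3, and their part in these levels was not tested.

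In the scTrio-seq2 samples, more replication RNA was found under 5C than under DMSO in cells that the authors' classifier called SSC1-4, and not in those called RPG3. The 5C samples were of days 12 to 16 and the DMSO samples of days 20 and 24, with 8 day 0 cells in DMSO replicate 5, so treatment and day cannot be told apart, and the DMSO samples with SSC1-4 sums (replicates 3, 4 and 5) were not those with RPG1 and RPG3 sums (replicates 1 and 2). In predicted SSC1-4 the replication genes summed to 2844 ± 305 CPM under 5C (n = 8) and 1657 ± 256 under DMSO (n = 3), and the mitosis genes to 4744 ± 960 and 3618 ± 971. The replication sums did not overlap (2471 to 3343 against 1485 to 1952 CPM), and the mitosis sums did (3143 to 6019 against 2947 to 4731). Of the replication genes 13 rose and none fell, and of the mitosis genes 8 rose and 1 fell, where 10.8% of all genes rose and 10.6% fell (21.4% together). *Mcm5* held 178 to 270 CPM with a median of 234 in the 8 5C samples and 100, 58.7 and 90.1 in the 3 DMSO samples (1.47 ± 0.18, adjusted p = 8.26e-07, edgeR). *Mcm3* held 208 to 257 CPM against 126, 91.7 and 97.3 (1.15 ± 0.15), and *Mcm4* 135 to 211 against 81.1, 77.3 and 66.0 (1.22 ± 0.17), and for all 3 helicase subunits no sample of one treatment reached the other. *Rrm2* held 46.6 to 176 CPM against 52.9, 21.2 and 20.5 (1.74 ± 0.35, adjusted p = 0.00157), with 1 5C sample inside the DMSO range.

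The mitosis genes of predicted SSC1-4 moved less evenly. *Mki67* held 76.9 to 272 CPM under 5C and 64.3, 20.5 and 25.3 under DMSO (2.25 ± 0.54, adjusted p = 0.0151, edgeR), and *Ttk*, the spindle checkpoint kinase MPS1, 69.6 to 129 against 52.7, 42.6 and 21.8 (1.33 ± 0.24). *Cenpe* (0.75 ± 0.15) and *Bub1* (0.77 ± 0.18) rose too, also with no overlap. *Cdca8*, borealin of the passenger complex, was lower, with 172 to 307 CPM against 364, 340 and 309 (-0.38 ± 0.14, adjusted p = 0.0463). *Cdk1* (0.26), *Ccnb1* (-0.12), *Ccnb2* (-0.17), *Aurka* (-0.36) and *Aurkb* (-0.47) did not pass. Without DMSO replicate 4 or without replicate 5 the count of members called was 14 in place of 22. Of the other genes 10 of 35 replication genes rose and none fell, and 16 of 56 mitosis genes rose and 3 fell.

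**Figure D5:**
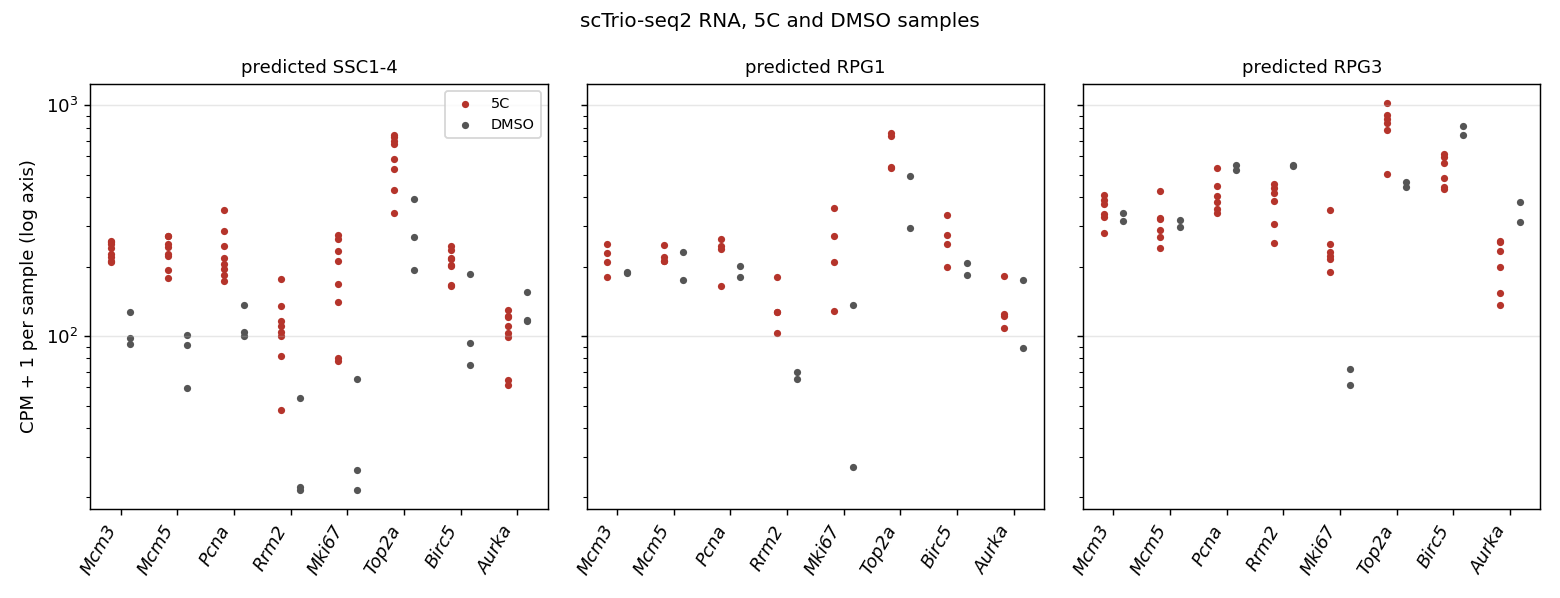
Level of 8 members in CPM + 1 on a log axis, 1 point per 5C (red) or DMSO (grey) sample with at least 5 cells of the predicted class, for SSC1-4, RPG1 and RPG3. In predicted SSC1-4 all *Mcm3* and *Mcm5* points of 5C lie above those of DMSO, in predicted RPG3 those of *Mcm3* and *Mcm5* overlap, and *Mki67* stands above DMSO in both.

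In predicted RPG1 (4 against 2 samples) 1 mitosis gene was called higher, where 2.24% of all genes were, and none lower (3.54%), with 5.78% called in all. *Bub1b*, the checkpoint kinase BUBR1, held 159, 158, 127 and 116 CPM under 5C and 51.0 and 61.6 under DMSO (1.26 ± 0.37, adjusted p = 0.0461, edgeR). In predicted RPG3 (6 against 2 samples, the DMSO ones of 1 source name) no replication gene rose and 1 fell, and 4 mitosis genes rose and 2 fell, where 6.54% of all genes rose and 9.24% fell (15.8% together). The share of members called was close to that of all genes. *Mki67* held 188 to 350 CPM with a median of 226 against 60.2 and 71.0 (1.92 ± 0.26, adjusted p = 7.48e-05, edgeR). *Top2a* held 505 to 1021 CPM against 442 and 465 (0.89 ± 0.19) and *Kif11* 93.7 to 228 against 67.4 and 61.5 (1.32 ± 0.32), and *Ttk* rose by 0.89. *Tyms* held 97.4 to 220 CPM against 337 and 324 (-0.94 ± 0.22, adjusted p = 0.00586), *Aurka* 135 to 256 against 311 and 381 (-0.72 ± 0.22) and *Birc5* 431 to 615 against 740 and 809 (-0.53 ± 0.16). For all of these the samples of the treatments did not overlap. The RPG3 count moved to 12 without 5C replicate 3 and to 1 without DMSO replicate 1 or replicate 2, and the RPG1 count was 6 without DMSO replicate 1 and 0 without 5C replicate 5, 6 or 8 or DMSO replicate 2. A DMSO sample left alone in these fits is assumed to vary like the 5C samples. The difference of the 5C effect between predicted SSC1-4 and predicted RPG3 was tested as an interaction and was called for 8 replication genes and 1 mitosis gene, all larger in SSC1-4, where 9.64% of 13698 genes were called in either direction. The 5C samples with RPG3 sums also gave SSC1-4 sums, and the fit took the 19 sums as independent. It was 2.24 for *Rrm2* (adjusted p = 0.00665, edgeR), 1.43 for *Mcm5* and 1.38 for *Pcna*. The difference for *Mki67* was not called.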

How the data were processed

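Unnormalized UMI counts for every gene in every cell were deposited by the authors, who made them, per the labels and the study's methods, with UMI-tools, STAR 2.7.2b and featureCounts 2.0.0 on mm10, without pooling, and with them each cell's cluster and its mitochondrial percent, both computed by the authors, the clusters in Seurat. The percent was not tested here. The classes of the scTrio-seq2 cells are the authors' scPred predictions. All 4464 STRT-seq and 1089 scTrio-seq2 cells of the deposited clean tables were used, with no further filter on cells or doublets. The same 96 well barcodes recur in every library, and no cell name repeated.

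UMI counts were summed per library and class (at least 5 cells) and tested with edgeR 4.0.16 (R 4.3.3, limma 3.58.1): filterByExpr, TMM factors, a robust quasi-likelihood fit without a replicate block, and Benjamini-Hochberg adjustment over all genes, called at 0.05. CPM are TMM-scaled. DESeq2 1.42.0, other filters, scalings, batches, leaving out each library and a replicate block were alternatives. The fit was tested on simulated data. Tables and figures used Python 3.11.15, numpy 2.4.6, pandas 2.3.3, scipy 1.17.1 and matplotlib 3.10.9. Intervals and floors (95%) cover counting error only.

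The members and lists were chosen with earlier results of these data known. All 43 members could be named. Values per library are given for up to 3 members of each direction and wave with the smallest adjusted p, and for members that went against the rest. Other genes come from 3 pathway lists by counts, or are from the 10 with the highest mean r to each score, of which 1 is not reported here, nor is 1 list of class markers. Sums of 2 classes from 1 library share that library: over the 7 libraries with RPG1 and RPG3, their deviations correlated at 0.107 to 0.469. The correlations were 0.0971 and 0.163 for RPG1 and SSC1-4, 0.085 to 0.259 for Meiotic and SSC1-4 and -0.00992 to 0.200 for Neural and SSC1-4.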

Additional observations from a re-analysis of the deposited data

Results flagged for a closer look

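In Meiotic cells, day 16 replicate 6 stood apart: its replication genes summed to 3583 CPM, against 2371 to 2532 in the other 5 libraries, and its *Rrm2* level was 110.8 CPM, against 42.0 to 55.1. Of its 82 Meiotic cells 81 were of Meiotic 1, whereas Meiotic 2 cells prevailed in the other 5 libraries. Its Meiotic 1 replication sum was 3528 CPM, against 2683 to 3209 in Meiotic 1 of those libraries. The part of this make-up was not tested. In predicted SSC1-4 under 5C, *Cdca8* was 172.1 CPM in replicate 6 and 253.2 to 306.5 in the other 7 samples. In all, 55 groups were searched for a sample far from the others, and chance alone gives about 1 in 20.

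The 5C effect differed between predicted SSC1-4 and predicted RPG3 for 9 members by an interaction term over 19 sums of a sample and class (edgeR, adjusted over all genes), each larger in SSC1-4. The 6 5C samples with RPG3 sums also gave SSC1-4 sums, and the fit took all sums as independent. On the log2 scale the difference was 2.24 for *Rrm2* (adjusted p = 0.00665), 2.04 for *Gins2* (0.0156), 1.43 for *Mcm5* (0.00024), 1.41 for *Tyms* (0.00248), 1.38 for *Pcna* (0.000455), 1.34 for *Birc5* (0.00238), 1.05 for *Mcm4* (0.0227), 1.01 for *Mcm3* (0.0015) and 0.86 for *Mcm7* (0.0139). The DMSO samples behind the 2 classes were different samples, of day 20 for RPG3 and of days 20 and 24, with some day 0 cells, for SSC1-4. Sample and day cannot be told apart from the class.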

How the results depend on the processing

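The counts of members called moved with the threshold, the batch, the block and the minimum number of cells. With both an adjusted p below 0.01 and an absolute ln fold change of at least 1, the counts were 0 in RPG1, 1 in RPG2, 2 in RPG3, 2 in RPG4, 0 in Early-pluripotency, 0 in Meiotic and 0 in Neural against SSC1-4, 2 in RPG3 against RPG1, 0 in RPG4 against RPG3, and 2, 0 and 1 for 5C in predicted SSC1-4, RPG1 and RPG3. Within B1 alone 0 were called in RPG1 and 4 in RPG4 against RPG3. Within B2 alone they were 0 in RPG1, 17 in RPG2, 21 in RPG3, 0 in Early-pluripotency, 0 in Meiotic and 4 in RPG3 against RPG1. With the replicate block over shared libraries 0 were called in RPG1, 24 in RPG3, 4 in Early-pluripotency and 1 in Meiotic, and the same libraries without the block gave 0, 17, 0 and 0, and 1 in RPG4 against RPG3. The block gave 35 in RPG3 against RPG1. For 5C in predicted SSC1-4, where samples of different days share only a number, a replicate block on that number gave 28. No paired analysis was possible because fewer than 2 numbers were shared for RPG4 against SSC1-4 and for 5C in predicted RPG1 and RPG3. Sums per batch and day gave 1 in RPG1, 0 in Meiotic, 13 in RPG3 against RPG1 and 1 in RPG4 against RPG3. A minimum of 10 cells gave 5 in RPG4, 23 in Meiotic, 24 in Neural and, for 5C, 6 in predicted RPG1 and 14 in predicted RPG3. DESeq2 gave 23 in Meiotic, its size factors in edgeR gave 1 in RPG4 against RPG3, no filter gave 4 for 5C in predicted RPG1, and SSC2 and SSC3 cells as the reference, picked for their high sums of these genes, gave 35 in Meiotic, a rise that follows in part from that choice. The causes were not tested.

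Leaving out 1 library at a time gave 1 to 2 members in RPG1, 16 to 21 in RPG2, 36 to 38 in RPG3, 3 to 6 in RPG4, 0 in Fibroblast, 0 to 1 in Early-pluripotency, 7 to 18 in Meiotic, 31 to 39 in Neural, 26 to 31 in RPG3 against RPG1, 0 in RPG4 against RPG3, and for 5C 14 to 26, 0 to 6 and 1 to 12 in predicted SSC1-4, RPG1 and RPG3. The members had 192 calls over all comparisons, a gene counting once in each. Of 3291 alternative values of these calls, 2587 kept direction and call, 695 lost the call and 9 turned direction, among them *Mki67* (-0.19) and *Ccna2* (-0.05) in RPG3 against SSC2 and SSC3 cells.

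The shares of cells with a high score moved with the line and the depth. At the 90th percentile the replication shares were 9.295% in RPG1, 17.78% in RPG2, 2.756% in RPG3, 6.061% in RPG4, 5.14% in Fibroblast, 6.186% in Early-pluripotency, 9.091% in gPSC and 51.16% in ESC, and the mitosis shares 17.78% in RPG2, 16.93% in RPG3, 18.18% in RPG4, 2.4% in Meiotic, 9.091% in gPSC and 16.28% in ESC. Thinned to 20000 UMIs the RPG4 replication share was 45.45%, and without thinning the replication shares were 48.94% in RPG2, 48.48% in RPG4 and 53.75% in gPSC.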
